A study of Mus musculus with 28 samples.

Results

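The small proline-rich protein (Sprr) genes of the mouse were followed through imiquimod inflammation and wounding in sorted epidermal cells. Members were taken by symbol: Sprr1a, Sprr1b, Sprr2b, Sprr2d, Sprr2e, Sprr2f, Sprr2g, Sprr2h, Sprr2k and Sprr3, which are 10 of the 47729 genes in the count tables. Of these, 9 passed the filter on low counts and were tested among 17299 genes. Sprr3 did not pass, with 5 reads over all 16 libraries.

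Small proline-rich proteins are cross-linked by transglutaminases into the cornified envelope, the protein shell that replaces the plasma membrane of keratinocytes at the end of their differentiation. Their genes lie together in the epidermal differentiation complex, a cluster that also holds involucrin, loricrin, the filaggrins and the late cornified envelope genes. Several are little used in the basal layer of resting interfollicular epidermis and are known to be induced in wounded, psoriatic or chemically irritated skin.

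C57BL/6 mice labelled female received imiquimod, a Toll-like receptor 7 agonist that provokes psoriasis-like inflammation, or vanicream as the control from postnatal day 60 for 6 days. Cells positive for integrin alpha 6, integrin beta 1 and Sca1 and negative for CD34, a gate for basal epidermal stem cells, were sorted for RNA sequencing. The 8 groups of 2 libraries were control and imiquimod skin at the end of treatment (day 6), both 30 days after treatment (day 30), and both 6 h or 12 h after wounds made at the 30-day point. The labels do not say whether libraries came from separate or pooled animals, so p-values measure only the spread between these libraries. The 12 chromatin accessibility samples of the series were not used here.

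Library totals ran from 23623968 to 76993427 counts. The sort markers Krt5, Krt14, Itga6, Itgb1 and Ly6a (Sca1) had reads in every library, and Cd34 was at 0.193 to 10.4 CPM (reads of a gene over the total of its library, on 1 scale for all libraries). Markers of suprabasal cells, which lie above the basal layer, were not absent: Krt10 was at 1503 to 16648 CPM, so the sorted cells were not free of that RNA. Both day 30 libraries numbered 1 held at most 1 read of Xist, which goes against the label female. Both day 30 libraries numbered 2 had summed CPM of 31 structural genes of the epidermal differentiation complex outside the Sprr family of 1349 (control) and 1314 (imiquimod), against 43.9 to 94.2 in the other 14 libraries. In bulk RNA, more cells of a type and more RNA per cell cannot be told apart.

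All members lie on chromosome 3 (GRCm38.p6, the assembly behind mm10), from Sprr2b at chr3:92316705-92318085 to Sprr1a at chr3:92483954-92485881. The order is Sprr2b, Sprr2d (chr3:92339140-92340873), Sprr2e (chr3:92352143-92353449), Sprr2f (chr3:92365187-92366442), Sprr2g (chr3:92373915-92375229), Sprr2h (chr3:92385685-92387324), Sprr2k (chr3:92432582-92433927), Sprr1b (chr3:92436808-92438817), Sprr3 (chr3:92456502-92458720) and Sprr1a. RefSeq annotates Sprr2g as a transcribed pseudogene and the other 9 as protein coding. The non-members Sprr2i and Sprr2j-ps lie between Sprr2h and Sprr2k, and Sprr2a1, Sprr2a2 and Sprr2a3 lie before Sprr2b. Sprr2 genes are close copies of each other, so reads may be split or lost between copies, and the value of each single Sprr2 gene is uncertain to that extent.

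Sequences before the annotated start were read from RefSeq for 9 of the 10 members (Sprr2g had no entry). They are shown so that the close copies of the Sprr2 subfamily can be compared with each other and with the Sprr1 genes. Capitals mark the AP-1 motif TGANTCA, the octamer motif ATTTGCAT and the TATA motif TATAAA, searched on both strands in the 250 bases before the start. AP-1 is the site of Fos and Jun dimers, the octamer that of POU factors, and the TATA motif a core promoter element. The Sprr2d, Sprr2e, Sprr2f and Sprr2h windows are chr3:92338890-92339139, chr3:92351893-92352142, chr3:92364937-92365186 and chr3:92385435-92385684 on the plus strand, and those of Sprr1a and Sprr1b are chr3:92485882-92486131 and chr3:92438818-92439029 on the minus strand. The Sprr1b run stops at the annotated gene edge after 212 bases, because its 250-base window reaches past that edge into the annotated gene. Its TATA match falls in this unprinted part, inside the annotated gene. Match positions for Sprr1b are counted from the end of the window, not from the gene edge.
Sprr2d: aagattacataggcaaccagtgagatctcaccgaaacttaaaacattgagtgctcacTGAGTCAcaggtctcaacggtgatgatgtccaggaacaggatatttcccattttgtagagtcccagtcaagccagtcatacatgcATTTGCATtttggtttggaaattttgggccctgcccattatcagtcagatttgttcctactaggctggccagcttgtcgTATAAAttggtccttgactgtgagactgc
Sprr2e: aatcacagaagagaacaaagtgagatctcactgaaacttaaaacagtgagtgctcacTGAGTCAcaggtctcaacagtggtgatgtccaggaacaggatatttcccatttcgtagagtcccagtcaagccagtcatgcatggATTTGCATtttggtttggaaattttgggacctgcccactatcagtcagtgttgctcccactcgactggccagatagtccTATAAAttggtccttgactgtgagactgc
Sprr2f: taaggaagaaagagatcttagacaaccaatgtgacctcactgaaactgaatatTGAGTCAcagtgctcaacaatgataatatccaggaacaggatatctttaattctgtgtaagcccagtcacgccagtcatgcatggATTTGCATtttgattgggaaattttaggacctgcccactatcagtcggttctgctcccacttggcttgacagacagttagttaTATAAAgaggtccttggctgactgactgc
Sprr2h: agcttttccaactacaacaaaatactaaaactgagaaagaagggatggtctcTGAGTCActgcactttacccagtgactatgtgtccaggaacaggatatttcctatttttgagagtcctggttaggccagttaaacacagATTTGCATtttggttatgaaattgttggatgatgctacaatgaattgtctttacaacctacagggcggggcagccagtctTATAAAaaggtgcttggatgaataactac
Sprr1a: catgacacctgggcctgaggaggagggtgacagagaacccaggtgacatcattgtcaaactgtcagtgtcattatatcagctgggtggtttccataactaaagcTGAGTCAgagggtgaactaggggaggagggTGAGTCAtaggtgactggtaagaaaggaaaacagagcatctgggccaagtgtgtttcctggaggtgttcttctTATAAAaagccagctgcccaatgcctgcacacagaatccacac
Sprr1b: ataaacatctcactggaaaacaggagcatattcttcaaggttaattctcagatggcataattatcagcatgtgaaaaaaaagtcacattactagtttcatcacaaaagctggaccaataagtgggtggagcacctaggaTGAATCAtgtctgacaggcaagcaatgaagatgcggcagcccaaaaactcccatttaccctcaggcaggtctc

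The 6 Sprr2 entries (Sprr2b, Sprr2d, Sprr2e, Sprr2f, Sprr2h and Sprr2k) each held all 3 motifs in the same order, with the TATA match nearest the start. Sprr1a held 2 AP-1 matches and a TATA match. Sprr1b held 1 AP-1 match, and a TATA match that lies inside the annotated gene. Sprr3 held a TATA match with no AP-1 or octamer match in the window. Over 32851 promoter windows of the same source, AP-1 was found in 6.75%, the octamer in 1.6% and TATA in 12.4%. All 3 together were found in 14 windows, a share of 0.0426%. The 6 Sprr2 entries are themselves among these 14, and as close copies they are not independent matches. Among the other motifs searched, the cAMP-response motif TGACGTCA and the STAT motif TTCNNNGAA had no match in any of the 9 windows (1.55% and 7.02% of all windows), and CCACCC was found in Sprr2b, Sprr2k, Sprr1a, Sprr1b and Sprr3 (28.1% of all windows). Upstream sequence was 89.3% identical between Sprr2d and Sprr2e, 80.6% between Sprr2h and Sprr2k and 65% between Sprr2d and Sprr2h. A match describes these letters only.

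**Figure D1:**
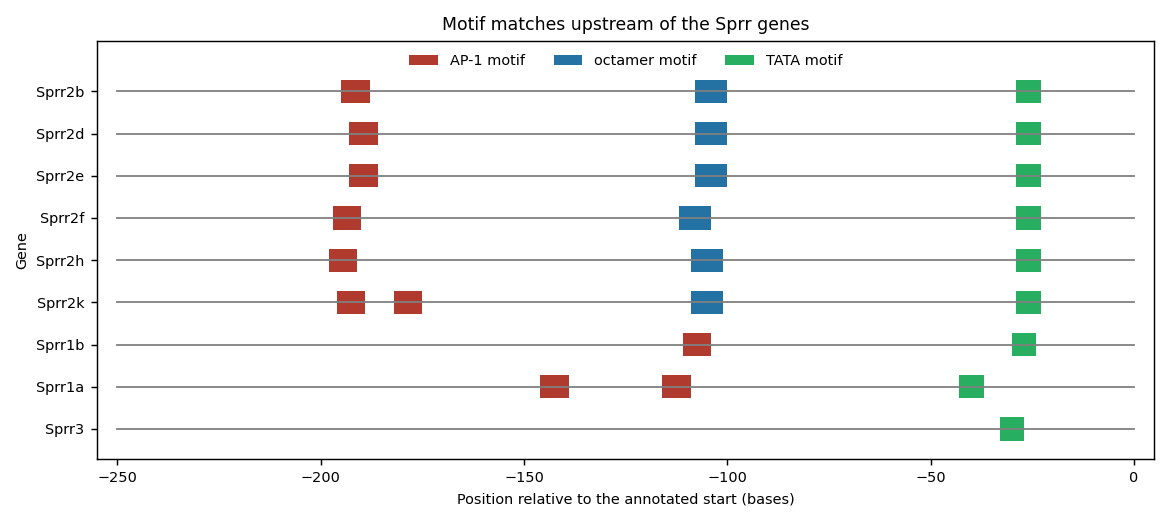
Positions of AP-1, octamer and TATA motif matches in the 250 bases before the annotated start of 9 Sprr genes (x axis: bases from the start, which is 0; each row a gene). The 6 Sprr2 rows each show the 3 motifs in the same order. In the Sprr1b row, 0 is the end of its window, which lies inside the annotated gene, as does its TATA match.

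At day 6, imiquimod skin had more RNA of all 9 tested members than control skin. Sprr2d was at 0.323 and 0.103 CPM in the control libraries and at 192 and 240 CPM in the imiquimod libraries. In control skin these were 16 and 3 reads, and the groups were far apart. Its log2 fold change was 10.04 ± 1.01 (SE, n = 2 and 2, edgeR adjusted p = 7.24e-05). Sprr2h rose from 1.76 and 0.0688 CPM to 91.2 and 90.0 CPM, a log2 fold change of 6.69 ± 1.07 (edgeR adjusted p = 0.00107). The control libraries lay far apart here, whereas the imiquimod libraries were alike.

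Sprr2b had 0 reads in both control libraries, and 690 and 526 reads (14.4 and 15.6 CPM) in the imiquimod libraries, while the other 14 libraries held at most 14 reads. Counted against a floor of 3 reads over the control group, it was at least 390-fold higher. Sprr2e was at 0.121 and 0 CPM in control and at 14.5 and 20.0 CPM in imiquimod skin (log2 fold change 8.04 ± 0.91, edgeR adjusted p = 8.48e-05). Sprr2f was at 0.141 and 0 against 14.6 and 16.2 CPM (7.66 ± 0.98, edgeR adjusted p = 0.000161). Both genes were almost silent in control skin. The Sprr2g pseudogene was at 0.565 and 0.0344 against 25.8 and 36.5 CPM (6.73 ± 1.23, edgeR adjusted p = 0.00204). Sprr2k stayed low, at 0.0202 and 0 against 1.02 and 1.18 CPM. That is 1 read against 89, a ratio of 85.6 with a 95% counting interval of 15.0 to 3418.

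The Sprr1 genes rose as well. Sprr1b, a gene known for induction in irritated epidermis, was at 11.0 and 0.447 CPM in control and at 89.3 and 220 CPM in imiquimod skin (4.95 ± 1.07, edgeR adjusted p = 0.00593). Sprr1a was at 36.1 and 11.2 against 68.4 and 116 CPM (2.19 ± 0.64, edgeR adjusted p = 0.0217). It had the smallest change of the 9, and its call rested on single libraries. It was lost without control library 2 (edgeR adjusted p = 0.129), without imiquimod library 2 (edgeR adjusted p = 0.137) and when only the compared libraries were fitted (edgeR adjusted p = 0.0672). Sprr1b was also lost in that last fit (edgeR adjusted p = 0.0687).

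Over the 9 members the median log2 fold change was 6.73, against 0.10 over all genes tested. The background was high in this comparison, with 21.6% of tested genes higher and 15% lower (edgeR adjusted p under 0.05). Control library 1 stood apart in the direction of the imiquimod group: it held 264 CPM of Krt6a, a keratin of stressed epidermis, against 7.44 CPM in control library 2, as it held 11.0 CPM of Sprr1b against 0.447. Macrophage markers moved with the comparison, with 7 of 10 higher and a summed level of 11.2 to 20.1 CPM in control and 74.2 to 78.8 CPM in imiquimod skin, and the 8 neutrophil markers summed to 0.103 to 0.303 and 0.592 to 1.19 CPM. Suprabasal markers did as well, with 5 of 10 higher and 1 lower and sums of 8897 to 12728 CPM against 12720.4 to 22990.4 CPM. Of 10 basal markers 4 were lower and 1 higher. Langerhans and dendritic cell markers had 3 of 7 tested higher, with sums of 194 to 205 CPM in control and 205 to 424 CPM in imiquimod skin, and markers of the infundibulum and sebaceous gland had 2 of 7 higher, with sums of 869 to 1015 and 1106 to 4060.3 CPM. The part of these markers in the result was not tested.

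**Figure D2:**
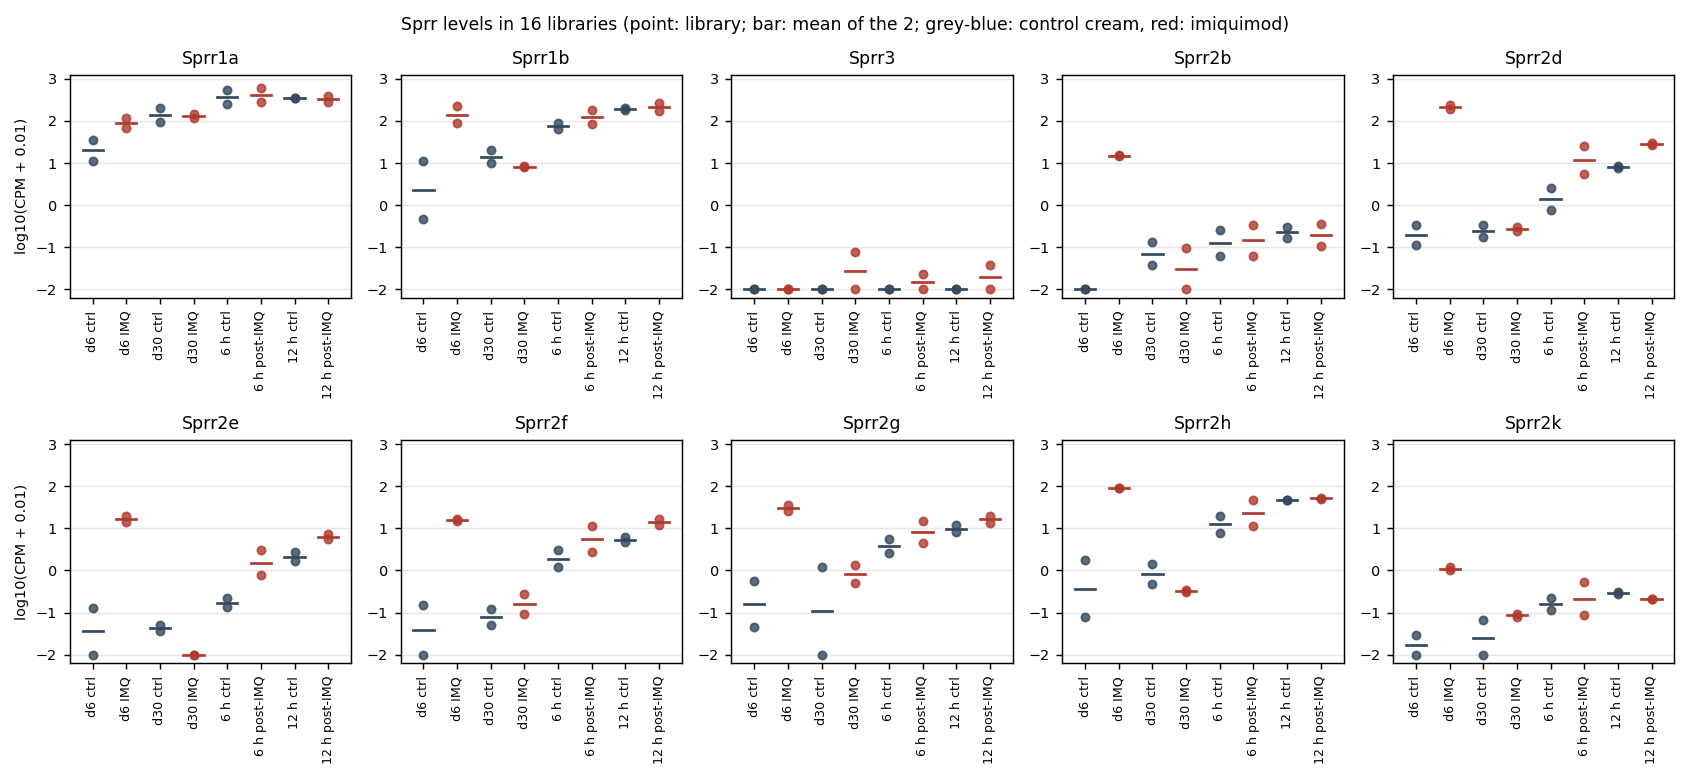
Level of each of the 10 Sprr genes in the 16 libraries (y axis: log10 of CPM + 0.01, so that -2 stands for 0 reads; points are libraries, bars the mean of 2 log values; d6 and d30, days 6 and 30; ctrl, control; IMQ, imiquimod; 6 h and 12 h, time after wounding at day 30). Sprr2b is above 1 CPM only in the day 6 imiquimod libraries, while Sprr2d, Sprr2e, Sprr2f, Sprr2g and Sprr2h are raised there and in wounds.

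By day 30 the Sprr2 genes were at low levels in both groups. Sprr2d was at 0.167 and 0.331 CPM in control and at 0.296 and 0.238 CPM in imiquimod skin, and Sprr2h at 0.460 and 1.41 against 0.296 and 0.340 CPM. Sprr2b, Sprr2e and Sprr2k held at most 3 reads in any day 30 library. None of the 9 members passed the test between post-imiquimod and control skin (edgeR, 0 at an unadjusted p under 0.05 as well, 0 with DESeq2), where 0.0116% of all genes did (4.14% unadjusted). Sprr1b was at 9.90 and 19.9 CPM in control and at 8.04 and 8.42 CPM in post-imiquimod skin (log2 fold change -0.93 ± 0.96, edgeR adjusted p = 1). The log2 effect of imiquimod at day 6 exceeded that at day 30 in 7 of the 9 members, where 13.7% of all genes passed that test in this direction (edgeR). Sprr2d (10.11 ± 2.03, edgeR adjusted p = 0.00703), Sprr2h (8.38 ± 1.65, edgeR adjusted p = 0.00683) and Sprr1b (5.88 ± 1.41, edgeR adjusted p = 0.0167) were among them, and Sprr1a was not (2.45 ± 0.87, edgeR adjusted p = 0.0716). Leaving out 1 library left 2 to 8 members past the threshold. The count was lowest without day 30 control library 2. It also fell without day 6 imiquimod library 2, either day 30 imiquimod library or day 30 control library 1. Without day 30 control library 2, Sprr2g turned to -1.75. The day 30 control library that was left held 0 Sprr2g reads, so that value depends on the prior count and is no measure of size.

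Sprr1a kept a high count in unwounded skin, at 91.7 and 202 CPM in control and 114 and 144 CPM in post-imiquimod skin. These ranges overlapped each other and lay above the day 6 control libraries. Its order of group means ran from 6 h wounds, at 437 ± 215 CPM (SD, n = 2) after imiquimod and 392 ± 190 CPM in control, through 12 h wounds at 352 ± 9.54 CPM and 330 ± 71.1 CPM, to day 30, day 6 imiquimod and day 6 control skin at 23.6 ± 17.6 CPM. Neighbours in that order overlapped except between the wound and day 30 groups and between both day 6 groups.

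In wounds of control skin, which addresses the response of skin without prior inflammation, 2 members had risen at 6 h and 6 at 12 h. At 6 h, Sprr2f was at 1.18 and 3.07 CPM against 0.0418 and 0.110 CPM at day 30 (log2 fold change 4.51 ± 1.03, edgeR adjusted p = 0.00601). Sprr2h was at 7.66 and 20.1 CPM against 0.460 and 1.41 CPM (3.70 ± 1.00, edgeR adjusted p = 0.0181). Neither gene's groups overlapped. These 2 of 9 members passed, a share near that of all genes, of which 18% were higher and 16.7% lower. With the replicate number as a block the Sprr2h call was lost (edgeR adjusted p = 0.0552) and 1 member passed. Macrophage markers moved with the 6 h wounds, with 6 of 10 higher and sums of 6.11 to 11.5 CPM against 2.13 to 2.32 CPM at day 30. Suprabasal markers had 6 of 10 lower and 0 higher, basal markers 4 of 10 higher and 0 lower, and fibroblast and melanocyte markers 2 each higher, of 8 and 4 tested. Their part in the Sprr values was not tested.

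At 12 h in control skin 6 of 9 members passed, all higher, where 16.5% of all genes were. Sprr2h was at 47.1 and 47.5 CPM (5.41 ± 1.04, edgeR adjusted p = 0.00398), Sprr2f at 6.06 and 4.77 CPM (5.82 ± 1.00, edgeR adjusted p = 0.0014) and Sprr2d at 8.45 and 7.74 CPM (4.75 ± 0.95, edgeR adjusted p = 0.00461). The 12 h libraries of each gene were close to each other. Sprr2e had 214 reads in the 12 h wounds and 2 at day 30, a ratio of 59.9 with a counting interval of 16.4 to 498. Sprr1b was at 207 and 184 CPM (3.52 ± 1.00, edgeR adjusted p = 0.0259) and Sprr2g at 11.7 and 8.20 CPM (3.75 ± 1.10, edgeR adjusted p = 0.0271). Without 1 library at a time 4 or 5 members passed. The Sprr1b call was lost without any 1 of the 4 libraries compared and under the replicate block (edgeR adjusted p = 0.0972), and the Sprr2g call without day 30 control library 1 or either 12 h library. Sprr1a, at 359 and 345 CPM, did not pass (1.08 ± 0.61, edgeR adjusted p = 0.212).

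In skin that had received imiquimod, the change from day 30 to wounds called 7 of 9 members at 6 h (20.1% of all genes higher) and 6 of 9 at 12 h (20.3% of all genes higher). Sprr2d was at 5.53 and 25.4 CPM at 6 h (5.84 ± 0.97, edgeR adjusted p = 0.00111) and at 26.7 and 29.7 CPM at 12 h (6.67 ± 0.97, edgeR adjusted p = 0.000557), from 0.296 and 0.238 CPM. Sprr2h was at 11.2 and 45.9 CPM at 6 h (6.46 ± 1.19, edgeR adjusted p = 0.00228) and at 50.4 and 53.9 CPM at 12 h (7.29 ± 1.21, edgeR adjusted p = 0.00131). At 6 h library 2 was several times higher than library 1 in both genes, and at 12 h the libraries were alike. Sprr2e had 0 reads at day 30 after imiquimod, and was at least 23.9-fold higher at 6 h and at least 117-fold higher at 12 h. Sprr2f and Sprr2g passed at both times. Sprr1b rose to 84.7 and 180 CPM at 6 h (4.00 ± 1.04, edgeR adjusted p = 0.0135) and to 175 and 263 CPM at 12 h (4.68 ± 1.07, edgeR adjusted p = 0.00759). Sprr1a passed at 6 h (1.75 ± 0.62, edgeR adjusted p = 0.0478) and not at 12 h (1.31 ± 0.62, edgeR adjusted p = 0.123). The 6 h calls of Sprr1a and Sprr1b were lost under the replicate block (edgeR adjusted p = 0.176 and 0.0889), and with Sprr2g they were lost without 6 h library 2 or either day 30 library, which left 4 members past the threshold. Of all genes, 18.6% were lower at 6 h and 17.3% at 12 h. Macrophage markers had 3 of 10 higher at 6 h and 1 of 10 at 12 h, with sums of 2.16 to 2.38 CPM at day 30, 5.33 to 7.18 CPM at 6 h and 10.8 to 15.0 CPM at 12 h. Suprabasal markers had 3 of 10 lower and 1 higher at 6 h, and 1 lower and 1 higher at 12 h, and the part of these markers was not tested.

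**Figure D3:**
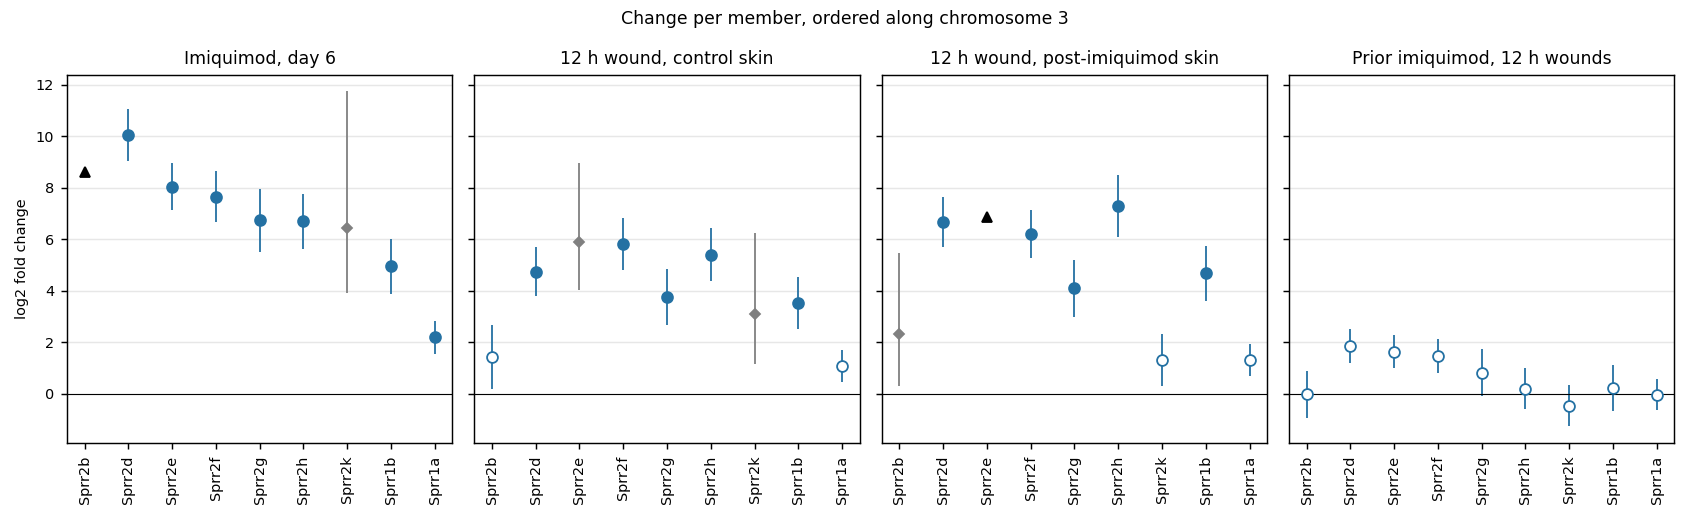
Log2 fold change of 9 Sprr genes in 4 comparisons, in their order along chromosome 3 (circles, edgeR estimate with SE; filled, adjusted p under 0.05; open, not past it; triangles, lower bounds against a group with 0 reads; diamonds, ratios of counts with 95% counting intervals where a group had 1 to 3 reads). Filled points and bounds are at day 6 and in wounds, and the comparison of prior imiquimod with control at 12 h holds open points alone.

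Whether earlier inflammation changed the wound response was asked by comparing post-imiquimod with control wounds. Of the 9 members, 0 passed at 6 h or at 12 h (edgeR, 3 at an unadjusted p under 0.05 at each time), where 0.0347% and 0% of all genes passed, 6.31% and 2.46% with an unadjusted p. All 9 estimates were positive at 6 h, with a median of 1.08 against -0.0068 over all genes tested. The members are related genes measured in the same libraries, so these are not 9 independent results. Sprr2 genes outside the member list went both ways. Sprr2a3 was at 6.36 and 6.68 CPM after imiquimod against 7.57 and 18.7 CPM in control wounds, and Sprr2a2 was lower as well. Sprr2i was at 2.61 and 9.03 against 0.193 and 1.66 CPM, and Sprr2j-ps was higher as well. Sprr2d, at 5.53 and 25.4 CPM against 0.773 and 2.60 CPM in control wounds, differed by 3.32 ± 0.75 (edgeR adjusted p = 0.328). Sprr2e, at 0.753 and 3.06 CPM against 0.123 and 0.217 CPM, differed by 3.56 ± 0.80 (edgeR adjusted p = 0.309). At 12 h Sprr2d was at 26.7 and 29.7 CPM against 8.45 and 7.74 CPM (1.86 ± 0.66, edgeR adjusted p = 1), Sprr2e at 5.56 and 7.26 against 2.68 and 1.63 CPM (1.64 ± 0.62, edgeR adjusted p = 1) and Sprr2f at 12.2 and 16.4 against 6.06 and 4.77 CPM (1.46 ± 0.66, edgeR adjusted p = 1). At 12 h the groups did not overlap in CPM for 6 of the 9 members, 5 higher after imiquimod (these 3, Sprr2g and Sprr2h; 13% of all genes) and 1 lower (Sprr2k; 28.3% of all genes). Sprr2g was at 13.3 and 20.0 against 11.7 and 8.20 CPM, and Sprr2k at 0.197 and 0.198 against 0.271 and 0.298 CPM, from 22 and 31 reads in all.

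These calls depended on the fit. With the replicate number as a block within each time point, Sprr2d passed at 6 h (3.12, edgeR adjusted p = 0.00363) and at 12 h (1.86, edgeR adjusted p = 0.0214), the 1 member that did. DESeq2 called Sprr2d (adjusted p = 0.0138) and Sprr2e (adjusted p = 0.000548) at 6 h and no member at 12 h. With only the compared libraries, edgeR called Sprr2d at 12 h (adjusted p = 0.0162). At 6 h, where the groups of each of the next 3 genes overlapped, mean levels were 6.93 against 2.13 CPM for Sprr2f (1.76 ± 0.69, edgeR adjusted p = 0.697), 9.87 against 4.06 CPM for Sprr2g (1.33 ± 0.95, edgeR adjusted p = 0.942) and 28.5 against 13.9 CPM for Sprr2h (1.08 ± 0.82, edgeR adjusted p = 0.959). Sprr2h at 12 h was at 50.4 and 53.9 against 47.1 and 47.5 CPM (0.20 ± 0.80, edgeR adjusted p = 1), and Sprr1b at 175 and 263 against 207 and 184 CPM (0.23 ± 0.90, edgeR adjusted p = 1). A p that misses the threshold does not show that they did not differ. The difference between the wound responses of both treatments, tested against day 30, passed for 0 members at 6 h or 12 h (edgeR, 0% of all genes at both times). At an unadjusted p under 0.05, 1 member passed at 6 h and 0 at 12 h, against 6.11% and 2.91% of all genes. For Sprr2d it was 3.39 ± 1.66 at 6 h (edgeR adjusted p = 0.848) and 1.93 ± 1.60 at 12 h (edgeR adjusted p = 1).

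Between 6 h and 12 h, 0 of 9 members passed in control wounds (edgeR, 2 at an unadjusted p under 0.05; 0.647% of all genes passed, 13.8% unadjusted) and 0 in post-imiquimod wounds (1 unadjusted; 0.173% of all genes passed, 10.7% unadjusted). In control wounds Sprr2d differed by 2.29 ± 0.73 (edgeR adjusted p = 0.197) and Sprr2e by 3.68 ± 0.79 (edgeR adjusted p = 0.0658). Under the replicate block Sprr2d (3.53, edgeR adjusted p = 0.00162), Sprr2e (4.61, edgeR adjusted p = 0.0345) and Sprr2f (2.34, edgeR adjusted p = 0.0437) passed in control wounds and Sprr2d (2.27, edgeR adjusted p = 0.0128) in post-imiquimod wounds. DESeq2 called Sprr2e in control wounds (adjusted p = 9.58e-05).

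The make-up of the Sprr2 reads also varied. This ratio was chosen after the values were seen and is given as a description with no test. Sprr2d reads per Sprr2h read were 0.101, 0.130, 0.179 and 0.163 in the 4 control wound libraries and 0.494, 0.554, 0.529 and 0.551 in the 4 post-imiquimod wound libraries, a mean 3.80-fold apart. At day 6 they were 2.11 and 2.67 with imiquimod. In the groups with few reads they were 0.184 and 1.5 in day 6 control skin (3 Sprr2d and 2 Sprr2h reads behind the 1.5), 0.364 and 0.235 in day 30 control skin and 1 and 0.7 in day 30 post-imiquimod skin, from 4 to 12 Sprr2d reads and 7 to 51 Sprr2h reads in a day 30 library. The wound libraries of both treatments did not overlap in this ratio. Their CPM of Sprr2d overlapped with both times pooled (0.773 to 8.45 in control and 5.53 to 29.7 after imiquimod). At each time alone the CPM of Sprr2d did not overlap. After imiquimod it was 5.53 and 25.4 against 0.773 and 2.60 in control at 6 h. At 12 h it was 26.7 and 29.7 against 8.45 and 7.74. In CPM, 0 of the 9 members separated all 4 from all 4 libraries, as 2.22% of 15158 genes did in the higher direction. Of 15157 genes with at least 3 reads in each wound library, 14 (0.0924%) were higher in every post-imiquimod library per Sprr2h read. These were Sprr2d, Sprr2e, Sprr2f, their neighbours Sprr2i and Sprr2j-ps, and 9 genes without an Sprr symbol, among them the alarmins S100a8 and S100a9. Sprr2h itself was at 7.66 to 47.5 CPM in control wounds and at 11.2 to 53.9 CPM in post-imiquimod wounds. That spread enters every ratio, so the share of 0.0924% is no background rate independent of the denominator.

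The separation depended on the gene in the denominator. Sprr2d reads did not overlap between treatments with 6 of the 8 other tested members as the denominator, and did overlap per Sprr1a read or per Sprr2e read. Of those 6, Sprr2b and Sprr2k had as few as 3 reads in a wound library, so ratios to them carry a large counting error. For Sprr2f, 3 of 8 denominators, Sprr2b among them, had the post-imiquimod libraries higher and 1, Sprr2d, had them lower. For Sprr2e it was Sprr2h alone of 8. The reads of all genes with an Sprr2 symbol, non-members included, were also taken as a denominator. Of these, Sprr2d took 3.72%, 4.95%, 9.15% and 9.38% in control wounds and 16.0%, 21.4%, 19.6% and 20.7% in post-imiquimod wounds. The non-member Sprr2a3 held 431 of 1182 and 516 of 1455 of them in 6 h control wounds, and 509 of 3408 and 732 of 5810 at 12 h. After imiquimod it held 490 of 2657 and 179 of 3191 at 6 h, and 840 of 5528 and 639 of 10142 at 12 h. Shares and ratios cover reads as assigned between close copies, and their part in this pattern was not tested.

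**Figure D4:**
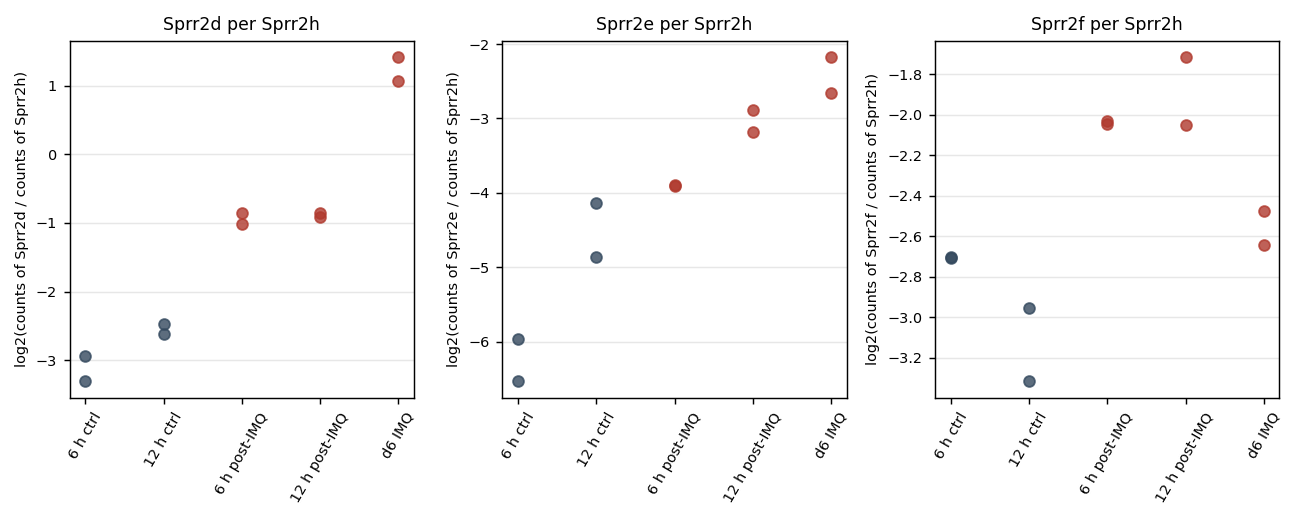
Reads of Sprr2d, Sprr2e and Sprr2f per Sprr2h read (y axis: log2 ratio, with its own range in each panel; points are libraries; red, imiquimod; grey-blue, control). Sprr2d per Sprr2h is 0.101 to 0.179 in control wounds, 0.494 to 0.554 in post-imiquimod wounds and 2.11 to 2.67 at day 6 of imiquimod; groups with few reads are not drawn.

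Other genes of envelope formation, from lists chosen with earlier results of these data known, gave the following counts. They stand beside 21.6% of all genes higher and 15% lower at day 6. There, 6 of 15 cross-linking and scaffold genes were higher and 2 lower (edgeR), among them the transglutaminases Tgm1 (5.22 ± 1.26, edgeR adjusted p = 0.0103) and Tgm3 (4.77 ± 0.75, edgeR adjusted p = 0.000937), enzymes that join Sprr proteins into the envelope. The Tgm1 call was lost without either control library (edgeR adjusted p = 0.0554 and 0.0907). Of 25 tested structural genes of the complex outside the family 2 were higher and 0 lower, Rptn, which encodes repetin (5.39 ± 1.08, edgeR adjusted p = 0.00228), and Prr9 (4.68 ± 1.32, edgeR adjusted p = 0.0161), which was lost without control library 2 or imiquimod library 2 (edgeR adjusted p = 0.0974 and 0.0743). The 2 of 25 is below the share of all genes higher. The median log2 fold change of the 25 was 1.49, against 0.10 over all genes tested, so the count does not show that the others did not rise. Of 20 epidermal transcription factors 7 were higher and 3 lower, the latter no more than the share of all genes, with the Ets factors Elf3 (4.33 ± 0.73, edgeR adjusted p = 0.000925) and Ehf (3.64 ± 0.32, edgeR adjusted p = 1.26e-05) among the higher. All 4 stress keratins were higher. Of 6 tested Sprr genes outside the member list, 5 were higher and 0 lower.

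At 12 h in control wounds 16.5% of all genes were higher and 14.3% lower. Of the 25 structural genes of the complex 12 were lower and 2 higher, of 15 cross-linking genes 5 were lower and 0 higher, and of 10 suprabasal markers 4 were lower and 0 higher (edgeR). The lower counts rested on single libraries. Without day 30 control library 2 they were 1 structural gene, 1 cross-linking gene and 1 suprabasal marker. Without 12 h library 1 they were 0, 3 and 0 in that order, and without 12 h library 2 they were 0, 1 and 1. Without day 30 control library 1 they were 18 structural genes, 6 cross-linking genes and 8 suprabasal markers. The structural genes summed to 74.1 CPM in day 30 control library 1 and 1349 CPM in library 2, against 71.0 and 69.8 CPM in the 12 h wounds, close to library 1 and far below library 2. Among the transcription factors 10 of 20 were lower (6 without 12 h library 1) and 1 higher, and the AP-1 subunits Fosl1 (-2.97 ± 0.55, edgeR adjusted p = 0.00252), Fosb (-2.78 ± 0.33, edgeR adjusted p = 0.000106) and Fos (-2.26 ± 0.33, edgeR adjusted p = 0.000355) were lower relative to day 30, also without any 1 of the 4 libraries (edgeR adjusted p of 0.000448 to 0.0342). Ovol1, a factor outside AP-1, was lower as well (-2.60 ± 0.53, edgeR adjusted p = 0.00473). It was at 61.1 and 66.6 CPM against 149 and 538 CPM at day 30. The other AP-1 subunits listed, Fosl2, Jun, Junb and Jund, are not given here, so these values do not cover AP-1 as a whole. Stress keratins had 3 of 4 higher. Of 6 tested Sprr genes outside the member list, 3 were higher and 0 lower. Macrophage markers were higher in 3 of 10, with sums of 2.13 to 2.32 CPM at day 30 and 10.2 to 10.4 CPM at 12 h.

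**Figure D5:**
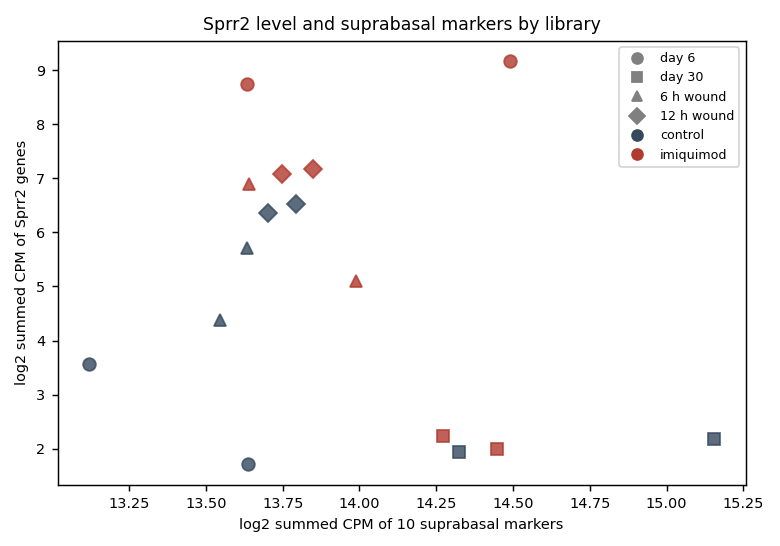
Summed level of the Sprr2 genes against that of 10 suprabasal markers in the 16 libraries (both axes: log2 of summed CPM; shape, time; red, imiquimod; grey-blue, control). The day 30 libraries have Sprr2 sums of 3.84 to 4.70 CPM, while the day 6 imiquimod libraries have 427 and 577 CPM and the wound libraries 20.8 to 143 CPM. The sums cover every gene with an Sprr2 symbol, non-members included. At day 30 the non-member Sprr2a3 held 69 of 92 and 43 of 165 of these reads in control libraries. In post-imiquimod libraries it held 77 of 111 and 49 of 118.

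Members were also compared over the 16 libraries by the correlation of log2 CPM, a description over libraries that share treatments. Sprr2d and Sprr2e correlated at 0.98, Sprr2f and Sprr2h at 0.97, Sprr1b and Sprr2h at 0.94, and Sprr1a and Sprr1b at 0.80. Sprr1a was least like Sprr2b, at 0.09. The 5 named genes outside the family most like Sprr1a were Nudcd3 (0.957), Usp16 (0.955), Prrg4 (0.948), Tmem51 (0.947) and Agpat5 (0.946). Those most like Sprr2h were Dpagt1 (0.975), Teddm3 (0.968), Nup93 (0.966), Bdh1 (0.965) and Psmd2 (0.965).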

How the data were processed

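Counts of 16 RNA-seq libraries (8 groups of 2) were used, with groups taken from the titles. Per the labels' protocols, the library kit was Illumina TruSeq, and strand is not kept by it. Per the submitters' processing notes STAR, Bowtie and mm10 were used. Their versions are not given here, nor is which STAR count column was deposited. Each of the deposited files holds whole-number counts per gene that the authors did not normalize. Ensembl IDs were matched to symbols (47224 of 47729). Testing used edgeR 4.0.16 in R 4.3.3 with TMM, filterByExpr, the robust quasi-likelihood F test, 1 fit of 8 group means with 8 residual degrees of freedom, Benjamini-Hochberg adjustment over 17299 genes and a threshold of 0.05. The scripts were tested on simulated data. DESeq2 1.42.0 was an alternative. An exact two-sided permutation test of 2 against 2 cannot go below p = 0.333. Counting intervals cover counting error only. The members, lists and comparisons were chosen with earlier results of these data known. Every member is named; of each gene list, up to 4 called genes with the largest change at day 6 and in 12 h control wounds could be named, and those of envelope formation are printed. For likeness, the Sprr1 and the Sprr2 gene with the highest mean log2 CPM were each set against tested genes outside the family that have a symbol (Pearson correlation, prior count 2).

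Replicate numbers were judged to pair libraries within a time point. Deviations of same-numbered libraries from their group means correlated at 0.220 to 0.539 in all 4 time points, and at -0.285 to 0.115 between times. The sign between times may be arbitrary, so size is what can be compared. Between 6 h and 12 h wounds the values were -0.285 to -0.233, larger in size than the 0.220 at day 6. At day 6 this contrast therefore does not show pairing. What a shared number stands for is not in the labels. For that reason the main fit holds no block, and its p-values ignore this pairing. The fit with the replicate block is given as an alternative.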

Additional observations from a re-analysis of the deposited data

Results flagged for a closer look

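The log2 effect of imiquimod at day 6 exceeded that at day 30 (interaction term, edgeR) in 7 members. The difference was 5.88 for Sprr1b, 13.23 for Sprr2b, 10.11 for Sprr2d, 11.81 for Sprr2e, 6.58 for Sprr2f, 6.25 for Sprr2g and 8.38 for Sprr2h. The values of Sprr2b and Sprr2e depend on the prior count, because groups in them held 0 reads, and are no measure of size.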

How the results depend on the processing

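Counts of members past the threshold changed with the fit; the cause was not tested. DESeq2 called 2 members between post-imiquimod and control wounds at 6 h and 1 from 6 h to 12 h in control wounds, where edgeR called 0. Without a filter on low counts edgeR called 2 members at day 30, 6 and 3 between the wounds of both treatments at 6 h and 12 h, 6 and 4 from 6 h to 12 h in control and in treated skin, and 3 and 2 for the difference of wound responses, where it otherwise called 0, and 6 in control wounds at 6 h in place of 2. That fit called 441 genes in all between the wounds of both treatments at 6 h in place of 6, and 151 in place of 2 at day 30. With only the compared libraries 1 member passed between the wounds of both treatments at 12 h and 1 from 6 h to 12 h in control wounds.

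With the replicate block 1 member passed between the wounds of both treatments at 6 h and 1 at 12 h, 3 from 6 h to 12 h in control skin and 1 in treated skin, and 1 in control wounds at 6 h. It moved no other count of members by over 1.5 times. Over all genes it called 28 in place of 6 between the wounds of both treatments at 6 h and 20 in place of 0 at 12 h, and DESeq2 called 131 and 27.

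Without both day 30 libraries numbered 1, where the lone library is assumed to vary like the other groups, 4 members in place of 7 passed for the difference of day 6 and day 30, 1 in place of 2 in control wounds at 6 h and 4 in place of 7 in treated wounds at 6 h. Without 1 library at a time these counts ran from 2 to 8, 1 to 2 and 4 to 8. Between the wounds of both treatments at 6 h the range was 0 to 1, with the 1 call made without library 1 of the post-imiquimod group.

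Over 9 members, 13 comparisons and all alternatives, 59 of 1328 log2 estimates turned in sign, 1 of them of a called value. Which values the report and its plots give was settled after these were seen, and 10 of theirs turned. Over single omissions the difference of day 6 and day 30 for Sprr2g ran from -1.75 to 9.39. The -1.75 came without day 30 control library 2, which left 0 Sprr2g reads in that group, so it depends on the prior count. Between the wounds of both treatments at 6 h, Sprr1a ran from -0.51 to 0.86 and Sprr2h from -0.35 to 2.00. At 12 h, Sprr1a ran from -0.29 to 0.19, Sprr1b from -0.12 to 0.51 and Sprr2b from -1.04 to 0.70, and Sprr2b was at 0.0049 with median-of-ratios scaling and at 0.0211 with DESeq2. TMM scaling moved 4 group levels by more than 1 SD and 76 by less. The denominators other than Sprr2h, and the counts of gene lists and values of their named genes without single libraries, were added after the data were seen. With 2 libraries a group and few reads, Sprr2k, Sprr3 and, outside day 6 imiquimod skin, Sprr2b had little room to show a change.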
